A study of Mus musculus with 28 samples.

Results

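Ion channels, aquaporins and carbonic anhydrases move salt, water and acid across the colon, and 68 genes of these families were among the 13519 genes counted in mouse colon organoids. Members were the protein-coding genes whose symbols name a potassium channel subunit (Kcn, 26 genes), a chloride channel or anoctamin (Clcn, Ano and Cftr, 15), a calcium channel subunit (Cacn, 10), a carbonic anhydrase (Car, 8), an aquaporin (Aqp, 6) or a sodium channel subunit (Scn and Scnn, 3). The rule uses symbols and no measured value. Clca and Trp genes were left out by the rule, as were Scnm1 and Kcnq1ot1, whose symbols only resemble those of channels. Scnn1b and Scnn1g, the partners of Scnn1a, were not among the genes counted.

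The organoids were grown from the colon epithelium of C57BL/6N mice of 4 genotypes. All carried VillinCreERT2, a tamoxifen-dependent Cre recombinase under the villin promoter, which is active in intestinal epithelium, and APCflox/flox, so that no group was without the floxed Apc alleles. AC organoids carried nothing further, PAC organoids carried Trp53LSL-R172H/+ as well, BAC organoids carried BraffloxV600E/+, and BPAC organoids carried both. Each culture was treated for 24 hours with 3.5 µM 4-hydroxytamoxifen (4-HT), which activates Cre, or with ethanol (EtOH) as the vehicle, and RNA was isolated 3 days later. EtOH controls thus held the unrecombined alleles, and the Trp53LSL-R172H allele is silent until its stop cassette is removed. There were 28 samples from 14 cultures of 7 donor mice: 1 donor with 2 cultures (duplicates 1 and 2) for AC, and 2 donors with 2 cultures each for PAC, BAC and BPAC. Replicates 1 and 2 are duplicate 1 of donors 1 and 2, and replicates 3 and 4 are duplicate 2 of the same donors; for AC, replicates 1 and 2 are the duplicates of its donor. Cultures of 1 donor are not separate animals, so the p values below measure the spread between cultures. The paper names 2 distinct passages of the organoids, and the labels do not say whether the duplicates are these.

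Samples held 20577276 to 40068718 counts. Trp53 stood at 51.4 to 66 CPM (the usual depth-scaled counts, here over TMM-scaled totals) in the 8 EtOH samples with the LSL allele and at 97.9 to 121.6 CPM in the 6 without it. With 4-HT it lay between 147.6 and 227.0 CPM in all genotypes. Counts over the whole gene do not show whether the floxed part of Apc was lost. In the 4-HT-treated PAC samples, replicates 1 and 2 lay closer than any other pair of 1 group, with a chi-square of 2.38 per gene against 8.53 to 287 in the other 37 pairs. Both held reads of Xist (834 and 636) and of the Y-linked Ddx3y (456 and 374), while every other PAC sample held at least 679 reads of 1 of them and at most 7 of the other. These 2 samples differed by more than counting noise and were kept as 2, and results that rest on them are given with the 2 summed into 1 sample as well. The labels of donor and culture of PAC 4-HT replicates 1 and 2 are thus in doubt, and PAC values of fits that pair EtOH and 4-HT by culture are given without PAC replicates 1 and 2 too. In bulk RNA, fewer cells of a type and less RNA per cell cannot be told apart.

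Colonocytes near the gut lumen take up sodium chloride and water, while crypt cells secrete chloride. Secretion starts at the apical chloride channel Cftr or the calcium-activated chloride channel Ano1, and basolateral potassium channels, Kcnq1 with its subunit Kcne3 and the calcium-activated Kcnn4, keep the driving force up. Uptake of sodium in the distal colon runs through the epithelial sodium channel, whose alpha subunit is Scnn1a. Carbonic anhydrases turn carbon dioxide and water into bicarbonate and protons and so feed the exchangers, and aquaporins let water follow.

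Per kilobase of exon, carbonic anhydrases stood first among the members. Car1, a cytosolic carbonic anhydrase abundant in colonocytes, had a mean level of 7664 (2037 to 16473) CPM per kb over the 28 samples, with the lowest and highest sample in brackets. Car2, another cytosolic carbonic anhydrase, stood at 443 (224 to 825) CPM per kb, and Aqp8, the colonocyte water channel, at 396 (12.1 to 1928) CPM per kb. Car9, a membrane-bound carbonic anhydrase known for its response to low oxygen, stood at 112 (58.5 to 203) CPM per kb, and Kcnk1, a potassium channel of the tandem-pore family, at 109 (73.6 to 137) CPM per kb. These 5 genes were above 100 CPM per kb on average. Next came Car4, the membrane-anchored carbonic anhydrase of surface colonocytes, at 80.9 (4.36 to 255) CPM per kb, Kcnq1 at 40.4 (24.1 to 62.6), the chloride channel Clcn2 at 30.4 (10.2 to 63.6), Kcnn4 at 30.4 (18.1 to 59.2) and Kcne3 at 27.7 (14.1 to 51.8). The range of Car1 lay above that of Car2, and from Car2 to Kcne3 the ranges of neighbours in this order overlapped. Cftr stood at 8.95 (4.95 to 15.2) CPM per kb and Ano1 at 7.95 (4.33 to 14) CPM per kb, with overlapping ranges. In all, 29 members lay between 1 and 100 CPM per kb and 34 lay under 1. Of the 68 members, 9 had at least 1 sample with 3 counts or fewer.

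**Figure D1:**
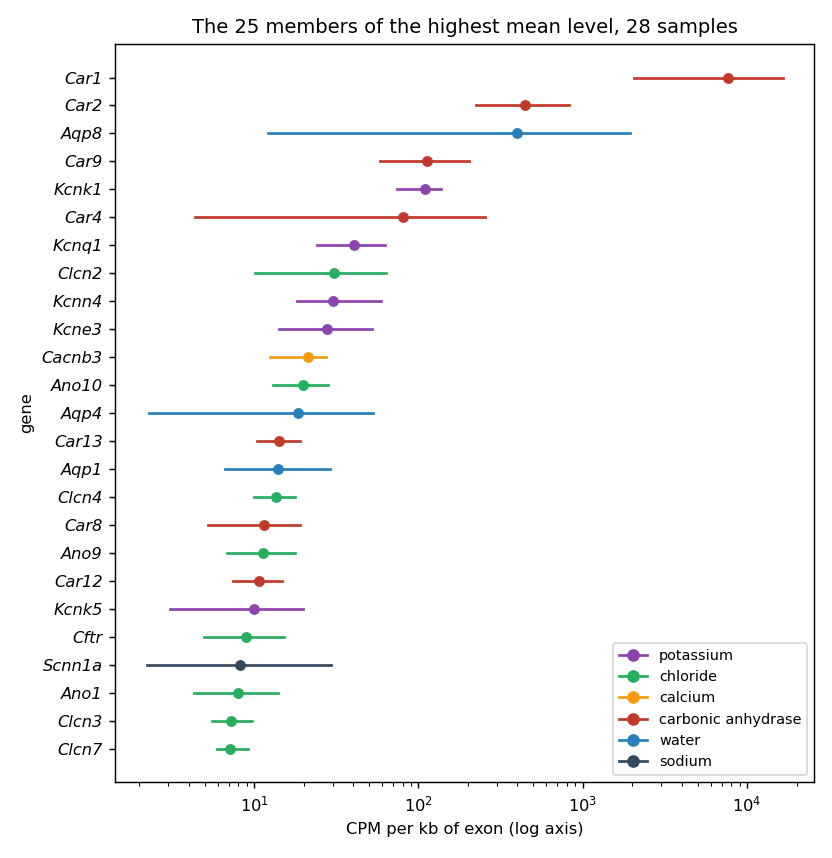
Mean level (dot) and the range from the lowest to the highest of all 28 samples (line) for the 25 members of the highest level, in CPM per kb of exon on a log axis, coloured by role. Car1 stands above all other members in its mean, and Aqp8 and Car4 have the widest ranges among the leading genes.

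More members fell than rose with 4-HT in each genotype. The calls were made with edgeR's quasi-likelihood test at an adjusted p of at most 0.01 over all genes. In AC, 2 members rose and 6 fell, 11.8% of the 68, where 7.25% of all genes were called. In PAC, 5 rose and 10 fell, 22.1% of the members beside 23.4% of all genes. In BAC, 4 rose and 16 fell, 29.4% beside 41.9%, and in BPAC, 6 rose and 20 fell, 38.2% beside 45.0%. With this TMM scaling, rises and falls over all genes were close to balanced, with 3.0% up and 4.25% down in AC, 11.2% and 12.2% in PAC, 20.3% and 21.5% in BAC, and 22.0% and 23.0% in BPAC. Among members the shares that fell were 8.82%, 14.7%, 23.5% and 29.4%, and the shares that rose 2.94%, 7.35%, 5.88% and 8.82%, in the same order. The share called was thus near that of all genes in PAC and below it in BAC and BPAC, and the share that rose was below that of all genes in PAC, BAC and BPAC. The median log2 change of the members was -0.02 for AC, -0.05 for PAC, -0.19 for BAC and -0.31 for BPAC, against 0.01, -0.03, -0.04 and -0.04 over all genes.

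In at least 1 genotype 9 members rose, 13.2% of the 68 where 25.2% of all genes did, and 23 fell, 33.8% where 26.9% of all genes did. Of the 9 that rose, 7 were among the 26 potassium channel subunits, the others being the calcium channel subunit Cacna2d4 and the sodium channel subunit Scn2b. The 23 that fell in at least 1 genotype were 5 potassium, 5 chloride, 5 water, 4 carbonic anhydrase, 2 calcium and 2 sodium channel members. In BPAC, 5 of 26 potassium members rose and 4 fell. The share of potassium members that rose was 3.85%, 19.2%, 15.4% and 19.2% in AC, PAC, BAC and BPAC, above that of all genes in AC and PAC and below it in BAC and BPAC. The AC share is 1 gene, Kcnma1. With the 2 close PAC samples summed, the PAC rises of Kcne3, Kcnh2 and Kcnq1 were no longer called, so the PAC share rests on that pair. Also in BPAC, where 23.0% of all genes fell, 5 of the 15 chloride members, 4 of the 8 carbonic anhydrases and 3 of the 6 aquaporins fell, and of the 10 calcium channel members 1 rose and 2 fell. In BAC, where 21.5% of all genes fell, 4 of the 6 aquaporins did. Of these, the calls of Aqp3 and Aqp4 were both lost without BAC replicate 1, 2 or 4. In total 31 members were called in at least 1 genotype, 45.6% beside 52.0% of all genes, with Scn2b counted in both directions, and 37 in none. With libraries scaled by their totals alone, the median log2 change of all genes moved from 0.01 to 0.23 for AC, from -0.03 to 0.2 for PAC, from -0.04 to 0.13 for BAC and from -0.04 to 0.18 for BPAC. Then 4 members rose and 4 fell in AC, 8 rose and 8 fell in PAC, 7 rose and 15 fell in BAC, and 9 rose and 15 fell in BPAC, Ano8 and Aqp1 being among those that rose in PAC. Over all genes 1511 then rose and 302 fell in AC, 3388 and 737 in PAC, 3881 and 2066 in BAC, and 4331 and 2038 in BPAC, so the balance over all genes holds for the TMM scaling and not for this one.

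The counts rest unequally on single cultures. The AC count was 0 without either of its 2 cultures, which leaves 1 sample an arm assumed to vary like the other groups, and 5 without PAC replicate 1. The PAC count was 7 without PAC replicate 1, 9 without PAC replicate 2 and 11 with the 2 close samples summed, and with the culture as a replicate block it was 24. The BAC count was 13 without BAC replicate 1 or without BAC replicate 4, and the BPAC count was 17 without BPAC replicate 1.

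The culture as a replicate block, which sets each 4-HT sample against the EtOH sample of its culture, called further members. The shares of all genes it called are not given here, so the further calls are not read as particular to the members. In AC it added Ano9, Aqp1, Car4 and Kcnq1. In PAC it added Ano1, Aqp1, Aqp4, Aqp8, Car12, Car2, Cftr, Clcn3, Kcnk1 and Scnn1a, and Kcnb2 was no longer called, at 1.23 (adjusted p = 0.0106). In BAC it added Ano3, Aqp8, Cacna2d4, Cftr, Kcnf1, Kcnh3, Kcnk1, Kcnk3, Kcnk6 and Kcnq1, and in BPAC Aqp4, Cacnb3, Cftr, Clcn3, Kcnj8 and Kcnq1. The PAC calls with the block draw on the labels of culture of the close pair. With PAC replicates 1 and 2 left out of the block, a setting chosen after the data were seen that leaves 2 PAC cultures, 4 members were called in PAC. These were Kcnk5, Aqp11 and Car4, which were called without the block, and Aqp4. The counts in the other genotypes were then 11 in AC, 29 in BAC and 32 in BPAC.

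**Figure D2:**
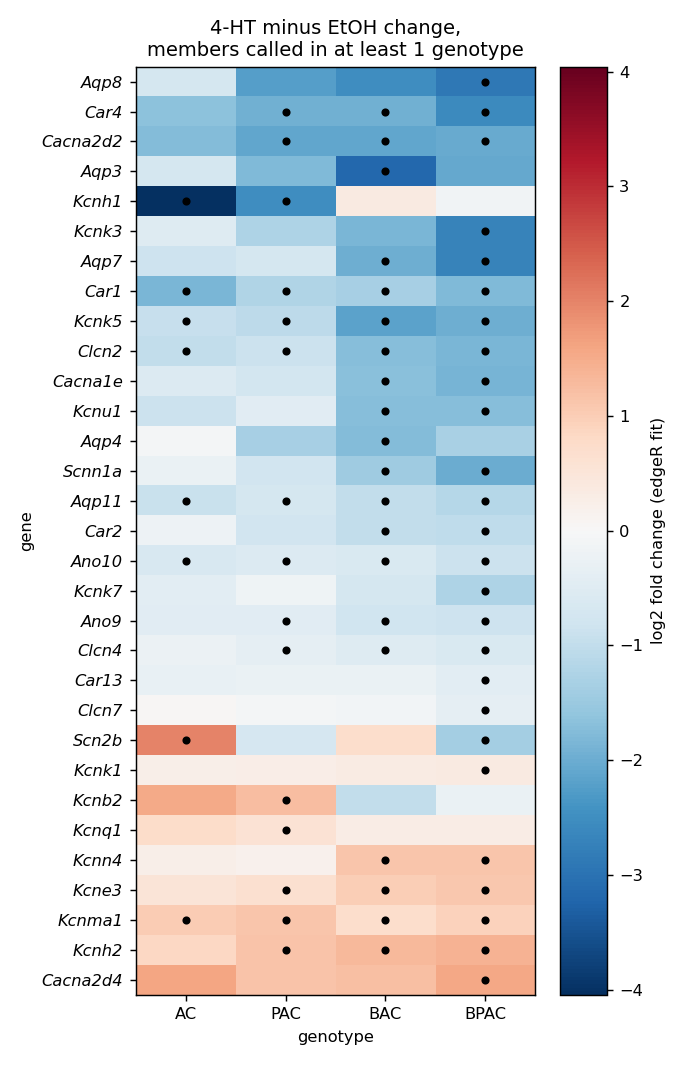
Log2 change from EtOH to 4-HT of the 31 members called in at least 1 genotype (rows), in each genotype (columns), from red for higher to blue for lower with 4-HT; black dots mark calls at an adjusted p of at most 0.01. Ano10, Aqp11, Car1, Clcn2 and Kcnk5 carry 4 dots in blue and Kcnma1 carries 4 in red.

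In all 4 genotypes 5 members fell, namely Clcn2, Kcnk5, Ano10, Aqp11 and Car1, and 1 member, Kcnma1, rose in all 4. These are 7.35% and 1.47% of the members, where 3.85% of all genes fell and 2.66% rose in all 4. Clcn2 (chr16:20702964-20717746, GRCm38), a chloride channel of the colonocyte's basolateral membrane, stood at 253 and 199 CPM in the AC cultures with EtOH and at 126 and 101 CPM with 4-HT. The BPAC cultures held 372, 232, 383 and 202 CPM with EtOH and 85, 61.4, 97.9 and 84.7 CPM with 4-HT. All 14 samples with 4-HT lay below all 14 with EtOH. Its log2 change was -0.99 ± 0.25 (SE, adjusted p = 0.0074) in AC, -0.88 ± 0.17 (SE, adjusted p = 3.79e-04) in PAC, -1.74 ± 0.18 (SE, adjusted p = 1.94e-08) in BAC and -1.85 ± 0.18 (SE, adjusted p = 5.64e-09) in BPAC. The AC call held under 16 of 27 other settings. It was lost without AC replicate 1 or 2, BAC replicate 1 or 3 or PAC replicate 1 or 4 (adjusted p from 0.0101 to 0.149), with totals alone (0.0198) and with counts summed per donor (0.0496), among others.

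Kcnk5 (chr14:20140057-20181809), a tandem-pore potassium channel sensitive to pH and known from bicarbonate-secreting and absorbing epithelia, stood at 48.4, 50.9, 39 and 48.6 CPM in PAC with EtOH and at 20.5, 22.2, 22.1 and 24.2 CPM with 4-HT. In BAC it stood at 58.1, 65.4, 49.5 and 50.4 CPM with EtOH and 10.6, 10.5, 15.3 and 13.4 CPM with 4-HT. Again no sample with 4-HT reached a sample with EtOH. The log2 change was -0.93 ± 0.21 (SE, adjusted p = 0.00364) in AC, -1.07 ± 0.15 (SE, adjusted p = 1.39e-05) in PAC, -2.17 ± 0.15 (SE, adjusted p = 1.69e-10) in BAC and -1.98 ± 0.15 (SE, adjusted p = 1.99e-10) in BPAC. The AC call of Kcnk5 held under 20 of 27 other settings and was lost without AC replicate 1 or 2 (adjusted p from 0.0857 to 0.106), with totals alone (0.0141) and with counts summed per donor (0.0215), among others.

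Ano10 (chr9:122175874-122294423), an anoctamin mostly found inside cells, stood at 122 to 166 CPM over the EtOH samples and at 76.8 to 105 CPM over the 4-HT samples, without overlap. The log2 change of Ano10 was -0.65 ± 0.11, -0.55 ± 0.08, -0.61 ± 0.08 and -0.87 ± 0.08 (SE) in AC, PAC, BAC and BPAC. Aqp11 (chr7:97724006-97738289), an aquaporin of intracellular membranes, stood at 29.1 to 41.4 CPM with EtOH and at 14 to 23.1 CPM with 4-HT. That of Aqp11 was -0.91 ± 0.15, -0.72 ± 0.1, -0.98 ± 0.1 and -1.14 ± 0.1 (SE) in the same order. Car1 (chr3:14766216-14808368) stood at 15651, 16335, 15611 and 16874 CPM in PAC with EtOH and at 5055, 4938, 9148 and 8693 CPM with 4-HT, the 2 lower values being those of the close pair. The BPAC cultures held 13563, 13312, 10835 and 20559 CPM with EtOH and 2956, 2542, 5716 and 5696 CPM with 4-HT. Its log2 change was -1.86 ± 0.36 (SE, adjusted p = 0.00135) in AC, -1.21 ± 0.25 (SE, adjusted p = 6.02e-04) in PAC, -1.34 ± 0.25 (SE, adjusted p = 8.44e-05) in BAC and -1.78 ± 0.25 (SE, adjusted p = 2.02e-06) in BPAC. In AC the calls of these 3 genes were lost without either of its cultures, with adjusted p of 0.0982 and 0.0136 for Ano10, 0.048 and 0.0224 for Aqp11, and 0.111 and 0.0349 for Car1 without AC replicates 1 and 2. Over the 28 samples, which share treatments and cultures, the log2 CPM of Car1 followed that of Aqp11 (Pearson's r = 0.94), Ano10 (0.91) and Ano9 (0.9) most closely among the members.

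Kcnma1, the pore subunit of the large-conductance calcium-activated potassium channel, rose from 5.23, 3.09, 7.79 and 5.23 CPM to 12.1, 11.2, 12.3 and 10.4 CPM in PAC, a log2 change of 1.11 ± 0.19 (SE, adjusted p = 1.08e-04). The change was 1.03 ± 0.26 (SE, adjusted p = 0.00956) in AC, 0.7 ± 0.19 (SE, adjusted p = 0.00301) in BAC and 0.92 ± 0.19 (SE, adjusted p = 2.47e-04) in BPAC. In AC this call held under 9 of 27 other settings. With the 2 close PAC samples summed it was 1.03 (adjusted p = 0.0119). It was lost without AC replicate 1 or 2, BAC replicate 1, 2, 3 or 4, BPAC replicate 1, 2 or 4 or PAC replicate 1 or 4 (adjusted p from 0.0112 to 0.221), and the BAC call was lost without BAC replicate 1, 2 or 3 (adjusted p from 0.0136 to 0.0236).

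**Figure D3:**
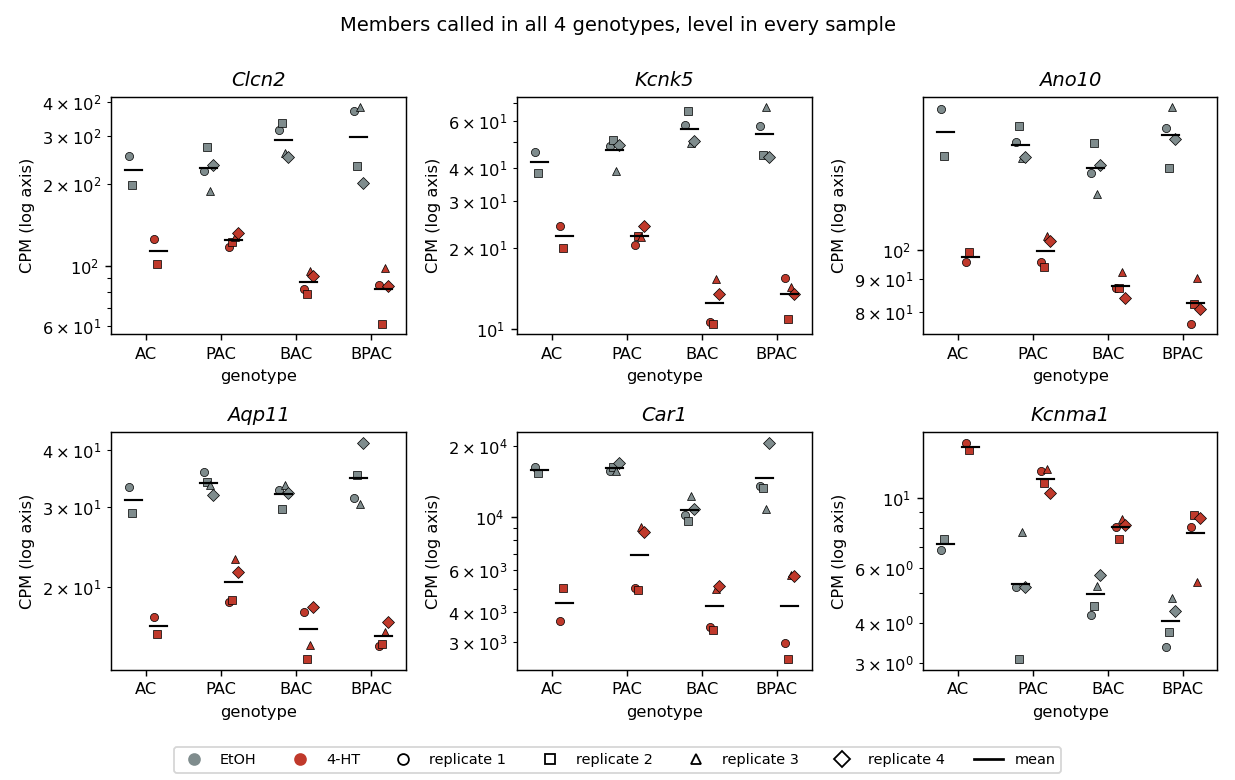
CPM of each sample on a log axis for the 6 members called in all 4 genotypes, EtOH in grey and 4-HT in red, with a symbol for each replicate and a line at the group mean. Clcn2, Kcnk5, Ano10, Aqp11 and Car1 lie lower with 4-HT in every genotype, and Kcnma1 lies higher.

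The sequences before the start sites of 3 genes of this group are shown, of the 5 that fell in every genotype. The window of Clcn2 begins inside an annotated exon and is not printed, and Car1 was not matched. They are the RefSeq windows of up to 250 bases before the start (GRCm38.p6), read 5′ to 3′ on the gene's strand and ended where the gene's first annotated exon begins. Capitals mark a match to one of 5 words searched on both strands, CTTTGAT (TCF/LEF factors), TGANTCA (AP-1), CCGGAAG (ETS factors), TTTATNG (CDX factors) and CAAAGTCCA (HNF4). The windows are Ano10 at chr9:122294424-122294673, minus strand, Aqp11 at chr7:97738290-97738497, minus strand, and Kcnk5 at chr14:20181810-20182032, minus strand.
Ano10: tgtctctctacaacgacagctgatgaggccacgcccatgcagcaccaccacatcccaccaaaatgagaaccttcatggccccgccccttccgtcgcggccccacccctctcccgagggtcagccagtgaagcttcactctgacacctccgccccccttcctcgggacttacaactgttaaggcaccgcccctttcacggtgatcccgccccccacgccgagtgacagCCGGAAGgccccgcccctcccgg
Aqp11: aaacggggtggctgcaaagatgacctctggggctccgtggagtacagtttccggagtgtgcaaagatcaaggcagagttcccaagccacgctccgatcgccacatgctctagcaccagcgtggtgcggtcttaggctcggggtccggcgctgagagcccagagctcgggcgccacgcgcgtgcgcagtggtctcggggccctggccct
Kcnk5: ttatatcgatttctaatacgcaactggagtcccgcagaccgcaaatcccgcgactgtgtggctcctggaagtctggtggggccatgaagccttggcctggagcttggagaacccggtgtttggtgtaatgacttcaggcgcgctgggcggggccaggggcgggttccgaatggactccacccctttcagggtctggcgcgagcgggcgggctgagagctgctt
All 3 are rich in G and C, at 65.2%, 65.4% and 61.4% of their letters, where the median of all 32851 windows was 52.4%. The ETS word in Ano10 begins 23 bases before the start, and none of the 5 words is in the other 2 windows. Of the 68 members, 47 had a window. Among these, 2 held the TCF/LEF word, 3 the AP-1 word, 3 the ETS word, 4 the CDX word and 0 the HNF4 word, which is 4.26%, 6.38%, 6.38%, 8.51% and 0%, beside 3.21%, 6.75%, 6.91%, 9.81% and 0.384% of all windows. Matches between the words did not overlap in the windows printed here. A match describes letters and no site of binding.

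The place of the Braf allele in the response was examined by setting the 4-HT changes of the genotypes with it, BAC and BPAC averaged, against those of the genotypes without it. It called 5 of the 68 members (7.35%, beside 6.61% of all genes), namely Kcnn4, Kcnh1, Kcnk5, Clcn2 and Kcnb2, and 4 of these are among the 26 potassium channel members. Kcnn4 (chr7:24370263-24386690), the calcium-activated potassium channel that powers chloride secretion, stood at 124, 92.8, 129 and 98.8 CPM in PAC with EtOH and 141, 147, 111 and 100.2 CPM with 4-HT. In BAC it stood at 122, 123, 113 and 107 CPM with EtOH and at 303, 288, 213 and 214 CPM with 4-HT. In BPAC it stood at 111, 147, 95.3 and 97.7 CPM with EtOH and at 295, 294, 195 and 204 CPM with 4-HT. All 8 samples with the allele and 4-HT lay above the other 20. The log2 change was 1.13 ± 0.17 (SE, adjusted p = 3.83e-06) in BAC and 1.13 ± 0.17 (SE, adjusted p = 2.91e-06) in BPAC, against 0.24 ± 0.23 (SE, adjusted p = 0.527) in AC and 0.17 ± 0.16 (SE, adjusted p = 0.446) in PAC, and the difference was 0.93 ± 0.18 (SE, adjusted p = 0.00138).

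Kcnk5 and Clcn2 fell in all genotypes and fell further with the allele. The difference in log2 change was -1.07 ± 0.16 (SE, adjusted p = 1.25e-04) for Kcnk5 and -0.86 ± 0.19 (SE, adjusted p = 0.00394) for Clcn2. With EtOH, 0 of 68 members differed in level with the Braf allele by edgeR's test, beside 0.0296% of all genes (0.0222% up and 0.0074% down). By limma-voom and DESeq2 0 were called as well. Not passing the test does not show that the levels were equal.

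Kcnh1, a voltage-gated potassium channel of the ether-a-go-go family, and Kcnb2, a delayed rectifier, had few counts. Kcnh1 stood at 1.12 and 0.673 CPM in AC with EtOH and at 0.0629 and 0.036 CPM with 4-HT, the latter being 2 and 1 counts, and the ratio of summed levels was 0.0559 with an exact 95% counting interval of 0.0111 to 0.174. In PAC it stood at 0.788, 0.561, 1.28 and 1.26 CPM with EtOH and at 0.0906, 0.243, 0.0909 and 0.24 CPM with 4-HT. In BAC it stood at 0.569, 0.496, 0.399 and 0.0517 CPM with EtOH and 0.771, 0.165, 0.28 and 0.815 CPM with 4-HT, and the groups overlapped there, as they did in BPAC. The fitted log2 change was -2.5 ± 0.59 (SE, adjusted p = 0.00193) in PAC and the difference with the Braf allele was 3.39 ± 0.7 (SE, adjusted p = 0.00202), a fitted value that draws on the 3 counts of AC with 4-HT and depends on the prior count. Kcnb2 went from 0.645, 1.04, 0.522 and 0.535 CPM to 1.21, 1.18, 1.95 and 2.26 CPM in PAC and from 1.5, 1.37, 1.05 and 0.981 CPM to 0.463, 0.708, 0.56 and 0.747 CPM in BAC. It rose in PAC, by 1.25 ± 0.34 (SE, adjusted p = 0.00537), the value in BAC was -0.98 ± 0.34 (SE, adjusted p = 0.0165), and the difference with the allele was -2.02 ± 0.38 (SE, adjusted p = 8.42e-04).

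The sign of all 5 differences was the same in each duplicate. The 5 were picked from both duplicates together, so the shared sign is no separate test. For duplicates 1 and 2, the difference was 0.87 and 0.97 for Kcnn4, -1.17 and -0.97 for Kcnk5, -0.99 and -0.72 for Clcn2, 2.57 and 4.28 for Kcnh1, and -1.36 and -2.58 for Kcnb2. With counts summed per donor, Kcnn4, Kcnk5 and Kcnh1 passed, while Clcn2 (adjusted p = 0.0442) and Kcnb2 (0.0162) did not. The call of Kcnn4 was lost without AC replicate 1 or 2 (adjusted p from 0.0128 to 0.0183), that of Kcnh1 without AC replicate 1 or 2 (adjusted p from 0.016 to 0.0296), that of Kcnb2 without AC replicate 2 (adjusted p = 0.0216) and that of Clcn2 without AC replicate 1 or 2 or BAC replicate 1 or 2 (adjusted p from 0.0111 to 0.0258). The side without the allele holds AC, with 1 donor and 2 cultures, beside PAC. Without AC replicate 1 the count was 2, and without AC replicate 2 it was 1, Kcnk5. With the culture as a replicate block 10 members were called, the further 5 being Aqp1 at -0.93 (adjusted p = 6.49e-04), Scnn1a at -1.21 (adjusted p = 5.11e-04), Ano1 at -0.57 (adjusted p = 0.00475), Ano9 at -0.37 (adjusted p = 0.00287) and Car2 at -0.54 (adjusted p = 0.00756), all lower with the allele. Without PAC replicates 1 and 2 the block called 12, with Clcn4, Kcne3 and Scn2b added and Ano1 not called, at -0.48 (adjusted p = 0.0134). The shares of all genes called with the block are not given here, so the counts of 10 and 12 are not read as particular to the members.

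**Figure D4:**
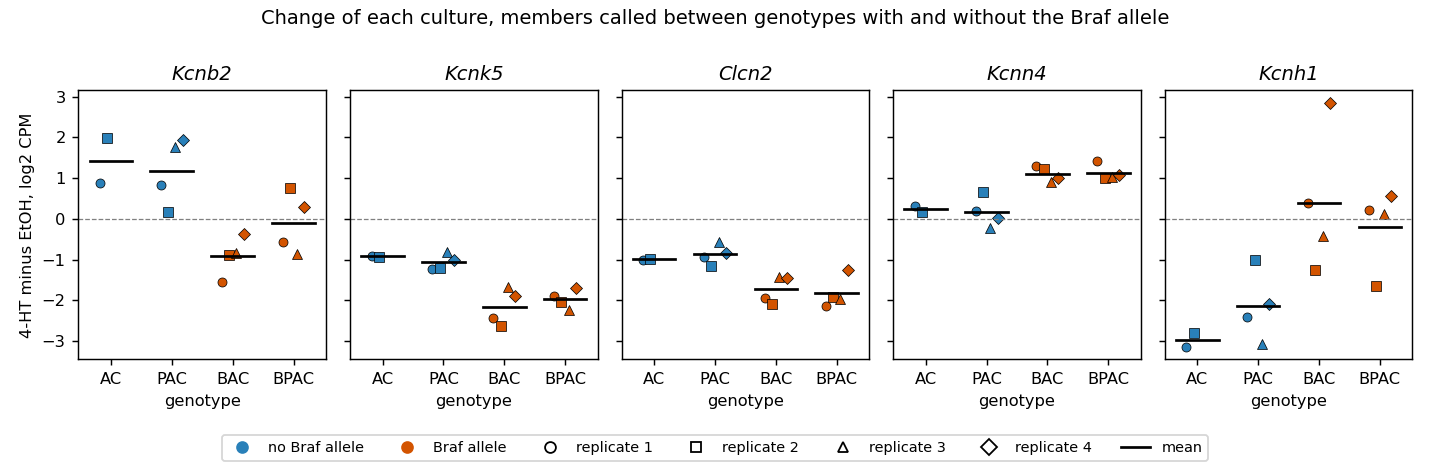
Change from EtOH to 4-HT of each culture in log2 CPM for the 5 members called between genotypes with (orange) and without (blue) the Braf allele; lines mark the mean of a genotype and symbols the replicate. The cultures with and without the allele do not overlap for Kcnn4, Kcnk5 and Clcn2, and they do for Kcnh1 and Kcnb2.

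The windows before the start sites of Kcnn4 and Kcnh1 are shown because their changes differed with the Braf allele in the direction opposite to Kcnk5, whose window stands above. They lie at chr7:24370013-24370262, plus strand and chr1:192190527-192190773, plus strand.
Kcnn4: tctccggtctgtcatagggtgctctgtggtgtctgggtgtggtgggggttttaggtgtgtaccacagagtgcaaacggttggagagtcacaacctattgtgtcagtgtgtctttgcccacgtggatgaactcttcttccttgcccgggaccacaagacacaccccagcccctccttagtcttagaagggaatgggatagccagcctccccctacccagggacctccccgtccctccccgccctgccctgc
Kcnh1: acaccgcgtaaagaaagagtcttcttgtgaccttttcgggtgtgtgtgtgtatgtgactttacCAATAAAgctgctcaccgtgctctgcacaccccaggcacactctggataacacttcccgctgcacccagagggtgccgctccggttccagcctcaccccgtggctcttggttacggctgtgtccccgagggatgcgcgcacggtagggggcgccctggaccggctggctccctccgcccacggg
The match is the CDX word in Kcnh1, read on the opposite strand, with its first printed letter 187 bases before the start, and the window of Kcnn4 holds none of the 5 words. The share of G and C is 58.8% in Kcnn4 and 61.9% in Kcnh1.

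Levels with 4-HT were set side by side as well, genotypes with the Braf allele against those without. Here 21 members differed, 2 higher and 19 lower with the Braf allele (30.9% together, beside 15.6% up, 14.6% down and 30.2% together of all genes). This comparison uses the same 4-HT samples as the comparison of changes. Kcnn4 and Kcnh1 were the 2 higher members. Aqp1, a water channel, stood at 17.5 to 34.7 CPM with the allele and at 37.7 to 75.7 CPM without it, a log2 difference of -1.15 ± 0.2 (SE, adjusted p = 8.09e-05). Kcnh8, a potassium channel with low counts and, like Cacna1a, chosen after its values were seen, stood at 0.234 to 1.02 CPM with the allele and 1.71 to 2.36 CPM without it, a difference of -1.8 ± 0.36 (SE, adjusted p = 3.16e-04). The calcium channel subunit Cacna1a stood at 1.94 to 3.16 CPM with the allele and 4.93 to 6.82 CPM without it, a difference of -1.09 ± 0.16 (SE, adjusted p = 1.17e-05). With EtOH, Aqp1 stood at 17.4 to 52.8 CPM with the allele and 28.1 to 45.7 CPM without it, a log2 difference of -0.16 ± 0.21 (SE, adjusted p = 0.72). Kcnh8 stood at 0.284 to 0.872 and 0.321 to 2.85 CPM, a difference of -1.08 ± 0.39 (SE, adjusted p = 0.176), and Cacna1a at 2.26 to 3.47 and 2.89 to 6.74 CPM, a difference of -0.59 ± 0.17 (SE, adjusted p = 0.106). Levels with EtOH thus overlapped between the sides and did not pass the test. Each donor has 1 genotype, so the allele cannot be told apart from other differences between the 4 donors with it and the 3 without it. Without the block, and with TMM scaling, neither Aqp1 nor Kcnh8 nor Cacna1a passed the test of the change in any single genotype. Aqp1 was called in AC and in PAC with the block, at 0.83 (adjusted p = 0.00639) and 0.69 (adjusted p = 8.52e-04), and with totals alone in PAC, at 0.95 (adjusted p = 0.00693), while duplicate 1 alone called Kcnh8 in PAC, at 2.1 (adjusted p = 0.00251). With the 2 samples of AC replicate 1 left out, 12 members differed.

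The chloride channels of secretion, Cftr and Ano1, were not called in any genotype. Cftr stood at 57.3, 56, 104 and 102 CPM in BAC with EtOH and at 44.6, 38.4, 65 and 56.4 CPM with 4-HT. In BPAC it stood at 62, 66.9, 91.6 and 108 CPM with EtOH and 49.5, 50.4, 56.2 and 73.5 CPM with 4-HT. Its log2 change was -0.09 ± 0.38 (SE, adjusted p = 0.908) in AC, -0.38 ± 0.27 (SE, adjusted p = 0.283) in PAC, -0.64 ± 0.27 (SE, adjusted p = 0.0485) in BAC and -0.52 ± 0.27 (SE, adjusted p = 0.109) in BPAC, none of which passed. Its EtOH level differed between duplicates, from 56 to 66.9 CPM in the 7 cultures of duplicate 1 to 80.1 to 118 CPM in the 7 of duplicate 2, with no overlap. With the culture as a replicate block Cftr fell in PAC, with a log2 change of -0.39 (adjusted p = 0.00158), in BAC, with -0.61 (adjusted p = 1.23e-05), and in BPAC, with -0.5 (adjusted p = 8.41e-05), and in AC it was -0.08 (adjusted p = 0.679). Without PAC replicates 1 and 2 the PAC value of Cftr was -0.31 (adjusted p = 0.094). The members most like Cftr in log2 CPM over the 28 samples were Clcn3 (Pearson's r = 0.9), an endosomal chloride-proton exchanger that was likewise higher in duplicate 2 with EtOH (139 to 167 CPM against 109 to 134 CPM), Clcn5 (0.85) and Kcnk13 (0.69). Ano1 stood at 59.2, 54.7, 50.1 and 35.7 CPM in BAC with EtOH and 44.5, 40.5, 44.4 and 35.4 CPM with 4-HT, and its log2 changes, from -0.28 in BAC to 0.39 in PAC, did not pass. With the block Ano1 was at 0.44 (adjusted p = 0.00655) in PAC, and at 0.24 (adjusted p = 0.27) without PAC replicates 1 and 2. In the same order, Clcn3 was at -0.33 (adjusted p = 4.68e-04) and -0.34 (adjusted p = 0.0224).

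Kcne3, the subunit that opens Kcnq1 for chloride secretion, stood at 32.4, 30.8, 36.2 and 31.1 CPM in BAC with EtOH and at 71.5, 71.4, 63.1 and 55.8 CPM with 4-HT. In the BPAC cultures it was at 39.3, 41.9, 25 and 32.6 CPM with EtOH and at 82, 92.2, 55.2 and 64.3 CPM with 4-HT, and in neither genotype did the groups overlap. Its log2 change was 0.66 ± 0.17 (SE, adjusted p = 0.00352) in PAC, 1.0 ± 0.17 (SE, adjusted p = 2.16e-05) in BAC and 1.08 ± 0.17 (SE, adjusted p = 6.85e-06) in BPAC, and 0.51 ± 0.24 (SE, adjusted p = 0.138) in AC. With the 2 close PAC samples summed, the PAC value of Kcne3 was 0.59 (adjusted p = 0.0148). Kcnq1 stood at 141 and 152 CPM in AC with EtOH and 256 and 237 CPM with 4-HT, and in PAC at 166, 127, 153 and 138 and 229, 244, 207 and 195 CPM. It rose in PAC, by 0.58 ± 0.15 (SE, adjusted p = 0.00368), which was 0.54 (adjusted p = 0.0138) with the 2 samples summed, and the value was 0.75 ± 0.21 (SE, adjusted p = 0.0163) in AC, 0.31 ± 0.15 (SE, adjusted p = 0.0767) in BAC and 0.31 ± 0.15 (SE, adjusted p = 0.0763) in BPAC. With the culture as a replicate block Kcnq1 rose in all 4 genotypes, the highest adjusted p being 0.00559 in BAC, and without PAC replicates 1 and 2 the PAC value was 0.47 (adjusted p = 0.0112). Kcnq1 overlaps its antisense transcript Kcnq1ot1, and whether the counting used strand is not given in the sources used here. Kcnh2, a voltage-gated potassium channel best known from the heart, stood at 0.63 to 2.01 CPM with EtOH and at 1.97 to 5.16 CPM with 4-HT in PAC, BAC and BPAC, and rose by 1.15 ± 0.31 (SE, adjusted p = 0.00518), 1.32 ± 0.31 (SE, adjusted p = 8.16e-04) and 1.4 ± 0.31 (SE, adjusted p = 4.47e-04). With the 2 close samples summed the PAC value of Kcnh2 was 1.13 (adjusted p = 0.0132). Kcnk1 rose in BPAC alone among the calls, by 0.37 ± 0.11 (SE, adjusted p = 0.00751), its values in AC, PAC and BAC being 0.24 ± 0.16, 0.28 ± 0.11 and 0.34 ± 0.11, and neither comparison between alleles called it. With the block Kcnk1 passed in BAC, at 0.34 (adjusted p = 5.53e-04), and in PAC, at 0.28 (adjusted p = 0.00376), where it was 0.19 (adjusted p = 0.178) without PAC replicates 1 and 2.

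Of the 8 carbonic anhydrases, Car1, described above, Car2, Car4 and Car13 fell in BPAC. Car4 stood at 429, 151, 501 and 217 CPM in BPAC with EtOH and 49.9, 8.56, 121 and 38.6 CPM with 4-HT, with no overlap. Its log2 change was -1.93 ± 0.53 (SE, adjusted p = 0.00579) in PAC, -1.93 ± 0.52 (SE, adjusted p = 0.00324) in BAC and -2.57 ± 0.54 (SE, adjusted p = 2.52e-04) in BPAC, and -1.64 ± 0.74 (SE, adjusted p = 0.128) in AC. With the 2 close samples summed the PAC value of Car4 was -1.97 (adjusted p = 0.0153). In AC, Car4 fell with the culture as a replicate block, at -1.87 (adjusted p = 0.00295). Car2 stood at 1733, 1831, 1536 and 1579 CPM in BAC with EtOH and 826, 863, 900.3 and 759 CPM with 4-HT. It fell with a log2 change of -1.0 ± 0.25 (SE, adjusted p = 0.00179) in BAC and -1.04 ± 0.25 (SE, adjusted p = 0.00117) in BPAC. In PAC the block gave -0.72 (adjusted p = 1.47e-04) for Car2, and -0.6 (adjusted p = 0.0124) without PAC replicates 1 and 2. Car13, a further cytosolic carbonic anhydrase, fell in BPAC, with a log2 change of -0.42 ± 0.11 (SE, adjusted p = 0.00243). Car9 and Car12, membrane forms like Car4, were not called in any genotype. Their log2 changes ran from -0.46 in PAC to 0.03 in AC for Car9 and from -0.47 in PAC to 0.12 in BAC for Car12. With the block Car12 was at -0.47 (adjusted p = 0.00126) in PAC, and at -0.33 (adjusted p = 0.079) without PAC replicates 1 and 2.

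Scnn1a (chr6:125320659-125344943) stood at 54.7, 49.5, 59.7 and 37.5 CPM in BAC with EtOH and 15.7, 17.3, 30.3 and 10.9 CPM with 4-HT. In BPAC it stood at 66.1, 46.3, 121 and 26.2 CPM with EtOH and at 13.5, 10.3, 32.1 and 9.23 CPM with 4-HT, and there the lowest EtOH sample lay below the highest 4-HT sample. The log2 change was -1.44 ± 0.4 (SE, adjusted p = 0.00417) in BAC and -2.0 ± 0.41 (SE, adjusted p = 2.13e-04) in BPAC, and -0.28 ± 0.56 (SE, adjusted p = 0.789) in AC and -0.76 ± 0.4 (SE, adjusted p = 0.144) in PAC. With the block the PAC value was -0.73 (adjusted p = 0.00372), and -0.81 (adjusted p = 0.0393) without PAC replicates 1 and 2. The BAC call of Scnn1a was lost without BAC replicate 1, 2 or 4 (adjusted p from 0.0179 to 0.0277).

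Aqp8 varied widely between donors. With EtOH it stood at 175, 1109.9, 64.8 and 728 CPM in PAC, low in both cultures of donor 1 and high in both of donor 2. In BPAC it stood at 1954, 573, 3049 and 346 CPM, high in both cultures of donor 1. In BAC it stood at 1329, 1806, 1352 and 1629 CPM in the 4 cultures and in AC at 366 and 304 CPM. With 4-HT it stood at 343 and 63.5 CPM in AC, 157, 157, 22.5 and 103 CPM in PAC, 130.1, 198, 497 and 253 CPM in BAC and 161, 19.2, 528 and 98.9 CPM in BPAC. The first 2 PAC values with 4-HT, of the close pair, were alike where the donors differed with EtOH. Each of the 14 cultures as labelled held less Aqp8 with 4-HT than with EtOH. The test called it in BPAC, at -2.88 ± 0.88 (SE, adjusted p = 0.00736), while the log2 change was -0.72 ± 1.17 (SE, adjusted p = 0.734) in AC, -2.24 ± 0.86 (SE, adjusted p = 0.0436) in PAC and -2.5 ± 0.87 (SE, adjusted p = 0.0172) in BAC. With the culture as a replicate block the fall passed in PAC, at -1.87 (adjusted p = 0.00745), in BAC, at -2.68 (adjusted p = 2.44e-04), and in BPAC, at -3.18 (adjusted p = 6.48e-05). Without PAC replicates 1 and 2 the PAC value was -2.21 (adjusted p = 0.0291). The BPAC call was lost without BAC replicate 2 or 4, BPAC replicate 1, 2 or 4 or PAC replicate 4 (adjusted p from 0.0101 to 0.0422). In all it was lost under 10 of 27 other settings, with totals alone, counts summed per donor and BPAC fitted alone among them. Car2 (Pearson's r = 0.93), Aqp4 (0.93), a water channel of the basolateral membrane, and Kcnk3 (0.9), an acid-sensitive potassium channel, were the members most like Aqp8 over the 28 samples. Aqp4 was called in BAC, where it stood at 185, 213, 328 and 324 CPM with EtOH and 59.7, 84.4, 90.6 and 78.8 CPM with 4-HT, a log2 change of -1.74 ± 0.5 (SE, adjusted p = 0.00493). With the block Aqp4 fell in PAC as well, at -1.25 (adjusted p = 2.22e-04), and at -1.54 (adjusted p = 0.00304) without PAC replicates 1 and 2, and in BPAC, at -1.49 (adjusted p = 1.61e-05). Aqp7 and Aqp3, aquaporins that also pass glycerol, had few counts. Aqp7 fell in BAC, with a log2 change of -1.97 ± 0.47 (SE, adjusted p = 0.00109), and in BPAC, with -2.71 ± 0.47 (SE, adjusted p = 2.59e-05). Aqp3 stood at 0.894, 0.786, 0.436 and 0.362 CPM in BAC with EtOH and 0.129, 0.0236, 0.105 and 0 CPM with 4-HT, and fell with a fitted log2 change of -3.18 ± 0.91 (SE, adjusted p = 0.00468). Aqp1 was not called in any genotype, with log2 changes of 0.85 ± 0.37 and 0.72 ± 0.26 in AC and PAC and -0.17 ± 0.26 and -0.23 ± 0.26 in BAC and BPAC. With the culture as a replicate block Aqp1 rose in AC, by 0.83 (adjusted p = 0.00639), and in PAC, by 0.69 (adjusted p = 8.52e-04), which was 0.47 (adjusted p = 0.0829) without PAC replicates 1 and 2.

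Of the other members called, Ano9 and the endosomal exchanger Clcn4 fell in PAC, BAC and BPAC, with log2 changes of -0.44, -0.8 and -0.85 for Ano9 and -0.35, -0.53 and -0.63 for Clcn4. The lysosomal exchanger Clcn7 fell in BPAC, with a log2 change of -0.35. Of the calcium channel subunits, Cacna2d2 fell with log2 changes of -2.1, -2.1 and -2.03 in the same 3 genotypes, Cacna1e fell in BAC and BPAC with -1.69 and -1.89, and Cacna2d4 rose in BPAC with 1.57. The potassium members Kcnu1, in BAC and BPAC (-1.71 and -1.71), and Kcnk3 and Kcnk7, in BPAC (-2.69 and -1.25), fell. 

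Single cultures decided some of these calls. In PAC, the call of Kcne3 was lost without PAC replicate 1 or 2 (adjusted p from 0.0238 to 0.0608), that of Kcnh2 without PAC replicate 1, 2 or 3 (adjusted p from 0.0159 to 0.0456), that of Kcnq1 without PAC replicate 1, 2 or 4 (adjusted p from 0.0116 to 0.0532), that of Kcnb2 without PAC replicate 1, 3 or 4 (adjusted p from 0.0164 to 0.0635), that of Kcnh1 without PAC replicate 1 or 3 (adjusted p from 0.0146 to 0.0154) and that of Car4 without PAC replicate 1, 2, 3 or 4 (adjusted p from 0.0201 to 0.0363). In BAC, that of Car2 was lost without BAC replicate 1, 2 or 4 (adjusted p from 0.011 to 0.0121), that of Car4 without BAC replicate 1, 2 or 4 (adjusted p from 0.0192 to 0.0225), that of Aqp4 without BAC replicate 1, 2, 3 or 4 (adjusted p from 0.0142 to 0.0293), that of Aqp3 without BAC replicate 1, 2 or 4 (adjusted p from 0.0152 to 0.0376), that of Cacna1e without BAC replicate 2, 3 or 4 (adjusted p from 0.0132 to 0.0327) and that of Kcnu1 without BAC replicate 1, 3 or 4 (adjusted p from 0.0185 to 0.0784). In BPAC, that of Car2 was lost without BPAC replicate 1 (adjusted p = 0.0152), that of Kcnh2 without BPAC replicate 4 (adjusted p = 0.0112), that of Kcnk1 without BAC replicate 1, 2 or 3, BPAC replicate 1 or 4 or PAC replicate 1 (adjusted p from 0.0106 to 0.0747), that of Kcnk3 without BPAC replicate 1 or 3 (adjusted p from 0.0129 to 0.0217), that of Kcnu1 without BPAC replicate 1, 2 or 3 (adjusted p from 0.0113 to 0.0256), that of Cacna1e without BPAC replicate 1 (adjusted p = 0.0302) and that of Cacna2d4 without BPAC replicate 1 or 2 (adjusted p from 0.0134 to 0.031).

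For members named after their values were seen, the PAC call of Ano9 was lost without PAC replicate 1 or 2 (adjusted p from 0.0134 to 0.0183) and with totals alone (0.075), and that of Clcn4 without PAC replicate 1 or 2 (adjusted p from 0.0199 to 0.0209) and with totals alone (0.173). In BPAC, the call of Car13 was lost without BPAC replicate 1, 2 or 4 (adjusted p from 0.0116 to 0.0278), that of Kcnk7 without BPAC replicate 1, 2 or 4 (adjusted p from 0.0188 to 0.0284) and that of Clcn7 without BPAC replicate 3 (adjusted p = 0.0378). With totals alone the adjusted p of these 3 was 0.117, 0.0132 and 0.23. The AC call of Kcnh1 was lost without AC replicate 1 or 2, BPAC replicate 1 or PAC replicate 1 (adjusted p from 0.0101 to 0.183).

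Scn2b (chr9:45117782-45130070), the beta-2 subunit of voltage-gated sodium channels and a cell adhesion molecule, followed the Trp53 allele in the EtOH controls. With EtOH it stood at 1.36 and 1.09 CPM in AC and 0.569, 0.786, 0.981 and 0.517 CPM in BAC, against 12.3, 29.2, 6.89 and 9.62 CPM in PAC and 21, 14, 23.9 and 13.8 CPM in BPAC. All 8 EtOH samples with the unrecombined LSL allele lay above all 6 without it. The log2 difference in EtOH level was 4.1 ± 0.31 (SE, adjusted p = 1.46e-08), and it held under each of 24 other settings, where it ranged from 3.76 to 4.3. Scn2b was the 1 member called there, where 8 of all 13519 genes (0.0592%) were. Each donor has 1 genotype, and other differences between the 4 donors with the allele and the 3 without it cannot be told apart from the allele. Kcnk4, another potassium channel, named after its values were seen, stood at 0.202 to 1.41 CPM with the allele and 0.0414 to 0.254 CPM without it, a difference of 2.5 ± 0.53 (SE, adjusted p = 0.0667), and passed with DESeq2 alone (adjusted p = 0.00223).

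With 4-HT the genotypes drew closer in Scn2b, at 5.31 and 4.49 CPM in AC, 1.26, 1.49, 0.91 and 1.09 CPM in BAC, 9.45, 10.6, 9.27 and 7.32 CPM in PAC and 6.33, 6.21, 8.95 and 6.34 CPM in BPAC. It rose in AC, with a log2 change of 2.0 ± 0.48 (SE, adjusted p = 0.00591), and fell in BPAC, with -1.39 ± 0.3 (SE, adjusted p = 3.58e-04). The values were -0.66 ± 0.3 (SE, adjusted p = 0.0807) in PAC and 0.72 ± 0.38 (SE, adjusted p = 0.108) in BAC. The AC call was lost under 8 of 27 other settings. Among these were limma-voom, thinning, AC fitted alone and the fits that leave AC 1 sample an arm, such as those without AC replicate 1 or 2. Averaged over genotypes, the change with the Trp53 allele less the change without it was -2.39 ± 0.37 (SE, adjusted p = 0.00685), the 1 member and 1 of 2 genes (0.0148%) called. This call was kept under 10 of 26 other settings, and it was lost without AC replicate 1 or 2, BAC replicate 1, 2 or 4, BPAC replicate 1, 2, 3 or 4 or PAC replicate 1 (adjusted p from 0.0141 to 0.214). With limma-voom the difference was -2.29 (adjusted p = 1), with counts summed per donor -2.4 (adjusted p = 0.483), and with the 2 close PAC samples summed -2.41 (adjusted p = 0.0115). The level with 4-HT still differed by 1.72 ± 0.26 (SE, adjusted p = 0.00171), as 1 member and 1 of 6 genes (0.0444%). This call was lost with limma-voom (adjusted p = 0.0196), with counts summed per donor (0.204), with duplicate 1 or 2 alone (0.349 and 0.375) and without AC replicate 1 or 2 (adjusted p from 0.0581 to 0.115).

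**Figure D5:**
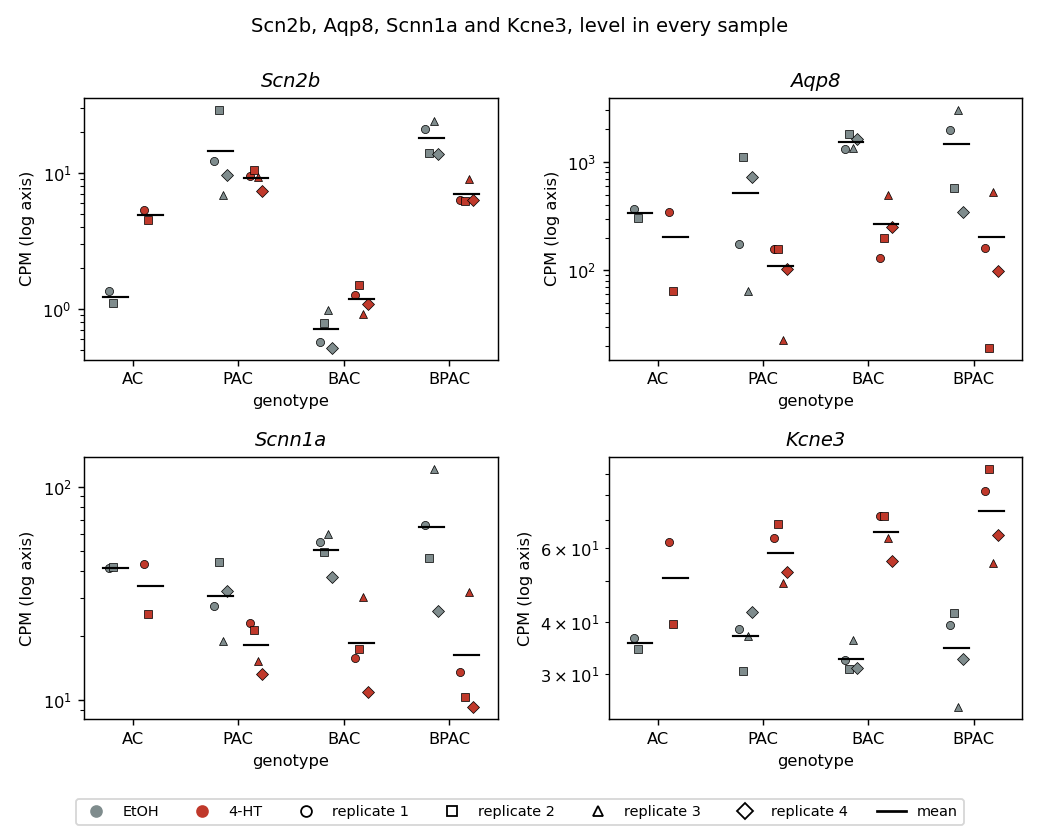
CPM of each sample on a log axis for Scn2b, Aqp8, Scnn1a and Kcne3, EtOH in grey and 4-HT in red, with a symbol for each replicate and a line at the group mean. Scn2b is higher in PAC and BPAC than in AC and BAC with EtOH, Aqp8 and Scnn1a spread widely between cultures, and Kcne3 lies higher with 4-HT in every genotype in its mean.

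Exchangers, pumps and regulators that work with these channels were counted from a list of 47 genes, 44 of them in the data. Of these, 1 rose and 6 fell in AC, 4 rose and 13 fell in PAC, 6 rose and 21 fell in BAC, and 7 rose and 23 fell in BPAC. Of all genes 3.0%, 11.2%, 20.3% and 22.0% rose and 4.25%, 12.2%, 21.5% and 23.0% fell in the same order. The median log2 change of the partners was -0.31, -0.38, -0.67 and -0.7. In BPAC the largest falls were those of Slc5a8, a sodium-coupled carrier of short-chain fatty acids, at -3.5 ± 0.31, Guca2a, the guanylin hormone, at -3.03 ± 0.2, and Slc9a3, the sodium-proton exchanger of the brush border, at -2.86 ± 0.45 (SE). The largest rises were those of Lrrc8c, a subunit of volume-regulated anion channels, at 2.12 ± 0.35, Fxyd5, a regulator of the sodium pump, at 2.1 ± 0.49, and Slc9a3r2, a scaffold that binds Slc9a3, at 1.16 ± 0.23 (SE). Of 12 Clca and Trp genes counted, which the rule left out, 3, 3, 5 and 4 fell in AC, PAC, BAC and BPAC and 0, 1, 0 and 0 rose.

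Markers of cell types moved with the same treatment. The shares of all genes that rose and fell are those given for the partners above. The lists share genes, as Guca2a is a colonocyte marker and a partner, and Vil1 is in the colonocyte and epithelial lists. Of 12 colonocyte markers, 9, 10, 12 and 12 fell with 4-HT in AC, PAC, BAC and BPAC. Their summed level was 12626 to 16057 CPM over the EtOH samples and 4471 to 5555 CPM in AC, 5667 to 7027 CPM in PAC, 2698 to 3797 CPM in BAC and 1856 to 4219 CPM in BPAC with 4-HT. Of 10 stem and crypt base markers, 6, 10, 8 and 9 rose in AC, PAC, BAC and BPAC, and of 7 proliferation markers, 2, 5, 6 and 7 rose. The part of these shifts in the members' values was not tested. Of 10 goblet and deep crypt secretory markers, 1, 3, 3 and 3 rose and 0, 0, 3 and 3 fell in AC, PAC, BAC and BPAC, of 10 enteroendocrine markers, 1, 3, 1 and 2 rose and 0, 0, 2 and 1 fell, and of 6 tuft markers 4 fell in BAC and 3 in BPAC. The enteroendocrine markers summed to 580 to 1261 CPM in BAC with EtOH and to 323 to 445 CPM with 4-HT, without overlap. Their ranges overlapped in BPAC, at 259 to 1166 CPM with EtOH and 213 to 512 CPM with 4-HT, and in AC and PAC as well. The median of their differences in log2 change with the Braf allele was -1.08, with 0 of 10 called. Of 10 epithelial markers, 2, 4, 6 and 6 fell and 0 rose in the 4 genotypes. Their summed level was 22480 to 34553 CPM over the EtOH samples and 19445 to 25352 CPM over the 4-HT samples, with means of 28915 CPM with EtOH and 20991 CPM with 4-HT in BPAC. Of 14 markers of fibroblasts, immune, endothelial, glial and neuronal cells, 4 were counted, with a summed level of 2.9 to 8.5 CPM. The other 10 were not among the genes counted.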

How the data were processed

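Total RNA was sequenced from the 28 samples described above. Per the labels, the authors deposited raw read counts per gene without normalisation, in a table of 13519 genes whose lowest row sum was 116 counts. Trimmomatic 0.39, STAR 2.5.2b and the build GRCm38/mm10 are named in the submitters' processing notes, while the counting program, the annotation and the use of strand are not given in the sources used here. Gene lengths and coordinates came from GENCODE M21 of GRCm38, which held 13479 of the 13519 identifiers. Promoter windows came from RefSeq (GRCm38.p6).

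Members were found by symbol. The members, the lists and the genes named were chosen with earlier results of these data known. Counts were fitted for all genes in 8 groups of genotype and treatment with edgeR 4.0.16 (quasi-likelihood test, TMM scaling, no filter on low counts) in R 4.3.3, and p values were adjusted by Benjamini-Hochberg over all genes, with calls at an adjusted p of at most 0.01. Named genes were a group of channels known from colonic transport with Scn2b, the 8 largest rises and falls called in each genotype, the members called between alleles, the 10 of the highest level per length, the 3 largest changes of transport partners in each direction in BPAC, and the 3 members most like Car1, Aqp8 and Cftr. Other members that were called are named as well, after their values were seen. CPM and CPM per kb used TMM-scaled totals, which does not remove biases of composition or length between genes. The common biological coefficient of variation was 0.191. EtOH and 4-HT samples of 1 culture deviated together (mean r = 0.416, range 0.245 to 0.532 over 12 cultures, against -0.138 between other cultures), so the labels' culture numbers pair the samples, except that those of PAC replicates 1 and 2 (r = 0.245 and 0.459) are in doubt. Without these 2 the range was 0.331 to 0.532 over 10 cultures. Alternatives were other scalings (DESeq2 1.42.0 size factors, totals alone), limma 3.58.1 (voom), DESeq2's Wald test, a mean CPM of at least 1 (12312 genes), the culture as a replicate block (also without the 2 close PAC cultures, chosen after the data were seen), counts summed per donor, each duplicate alone, counts thinned to 20577276, the 2 close PAC samples summed, each genotype fitted alone, an adjusted p of 0.05, and each culture left out. The scripts were tested on simulated data. Counting intervals and the floor of 3 counts cover counting error only. 1 sample title gave no duplicate number and was counted as duplicate 1.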

Additional observations from a re-analysis of the deposited data

Results flagged for a closer look

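In 3 of 52 groups of 4 cultures, 1 culture lay far from the other 3 in its change from EtOH to 4-HT, where chance gives about 1 in 20. The log2 change of Kcnq1 was 0.94 in PAC replicate 2, 1 of the 2 cultures whose 4-HT labels are in doubt, and 0.47, 0.43 and 0.50 in PAC replicates 1, 3 and 4. That of Car2 was -0.77 in BAC replicate 3, and that of Kcnn4 was 1.41 in BPAC replicate 1.

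For 5 members the change with 4-HT differed between the genotypes with and without the Braf allele by edgeR's quasi-likelihood test. The differences on the log2 scale were -2.02 for Kcnb2, 3.39 for Kcnh1, -1.07 for Kcnk5, -0.86 for Clcn2 and 0.93 for Kcnn4. Without AC replicate 1 this test called 2 members, without AC replicate 2 it called 1, Kcnk5, and with duplicate 2 alone 0. For Scn2b the change differed between the genotypes with and without the Trp53 allele, by -2.39. This call was kept under 10 of 26 other settings and lost under 16, limma-voom, counts summed per donor and each duplicate alone among them, with an adjusted p of up to 1.0. Each donor has 1 genotype, so alleles cannot be told apart from other differences between donors.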

How the results depend on the processing

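The numbers of members called, 8, 15, 20 and 26 for AC, PAC, BAC and BPAC, were made at a depth that leaves 9 members with 3 counts or fewer in some sample, and AC has 2 cultures of 1 donor. Duplicate 2 alone called 0, 0, 10 and 11 members in the 4 genotypes, 0 in the comparison of changes by the Braf allele, 0 in that by the Trp53 allele, and 3 and 0 in the comparisons of 4-HT levels by the Braf and Trp53 alleles. Duplicate 1 alone called 4 in AC, 3 by the Braf allele, 0 by the Trp53 allele and 0 in 4-HT level by the Trp53 allele. Counts summed per donor gave 3 in AC, 3 by the Braf allele, and 0 by the Trp53 allele in both change and 4-HT level. Summing per donor lost Car4, Clcn2, Kcnb2, Kcnh2 and Kcnq1 in PAC. In BAC it lost Aqp4, Cacna1e, Car2, Car4, Kcnma1, Kcnu1 and Scnn1a, and in BPAC Aqp8, Car2, Clcn7, Kcnk1, Kcnk3 and Kcnu1. It added Clcn3 in PAC, Cftr and Kcnk6 in BAC, and Cftr, Clcn3 and Kcnk6 in BPAC. Each genotype fitted alone gave 1 in AC and 16 in BPAC. At an adjusted p of 0.05 there were 13 in AC, 25 in PAC and 9 by the Braf allele. With the culture as a replicate block, 12, 24, 30 and 32 members were called in the 4 genotypes and 10 by the Braf allele. With PAC replicates 1 and 2 also left out, a setting chosen after the data were seen, it called 4 in PAC and 12 by the Braf allele. Shares of all genes under the alternatives of this section are not given here, so these counts are not read as particular to the members. limma-voom, thinning and the 2 close PAC samples summed each gave 0 for the change by the Trp53 allele, and limma-voom gave 0 and DESeq2 2 for its 4-HT level. The member lost in each count of 0 by the Trp53 allele was Scn2b. DESeq2 also gave 2 for its EtOH level. With 1 culture left out, the counts ran from 0 to 10 in AC, 7 to 16 in PAC, 13 to 24 in BAC and 17 to 26 in BPAC, from 1 to 7 by the Braf allele and 0 to 1 by the Trp53 allele, and from 12 to 24 and 0 to 1 in 4-HT level by these alleles. The filter at a mean CPM of at least 1, which left fewer genes to test, gave 7, 13, 15 and 20. The causes of the other differences were not tested. Of the 98 called values of single members, 21 of them 4-HT levels by the Braf allele, 22 held their call under every alternative run. Over 2553 alternative values 2164 kept the call, 389 lost it and 0 changed sign. The 98 were picked as called in the same samples, so kept calls and signs are no separate support. Many alternatives leave out a culture of another genotype, which reaches a genotype's change only through the shared spread and scaling.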
